A study of Mus musculus with 12 samples.

Results

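The aminoacyl-tRNA synthetases were described in heated ATDC5 cells as 35 genes of the 54532 in the deposited count table, taken by symbol. Of these, 19 encode cytosolic enzymes and 16, whose symbols end in 2, encode mitochondrial ones. ATDC5 is a clonal mouse cell line, labelled as wild-type cartilage progenitor cells, and cartilage-forming cells are commonly grown from it in culture. The cultures, kept at 37 °C in high-sugar DMEM with 10% serum, were exposed to 37 °C, 40 °C or 44 °C for 10 min in 4 biological replicates per temperature. All 3 groups share the line, the wild-type genotype and the medium, and the 37 °C group is the unheated control of both heated groups. The labels do not state how long after the exposure RNA was extracted. Poly(A) RNA was sequenced, and each library held 16269026 to 19506705 counted reads.

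Aminoacyl-tRNA synthetases join each amino acid to its tRNAs, the step that fixes which amino acid a codon is read as. The cytosol and the mitochondrion each need charged tRNAs of their own. Most mitochondrial enzymes have a nuclear gene of their own, while Gars and Kars each encode both forms from 1 gene. The enzymes fall into 2 structural families, class I and class II, which differ in the fold of their catalytic domain. Several cytosolic ones are held with the scaffold proteins AIMP1, AIMP2 and EEF1E1 in the multisynthetase complex. Many cytosolic synthetase genes are known targets of the transcription factor ATF4, which is translated when uncharged tRNA accumulates or the endoplasmic reticulum is stressed.

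After 44 °C, 4 of the 19 cytosolic genes (Rars, Gars, Farsb and Dars) were called higher in mRNA level than at 37 °C. So were 2 of the 16 mitochondrial genes (Lars2 and Rars2), and no gene of either class was called lower. The rises of these called genes were small, between 1.16-fold and 1.26-fold. Over all 14424 genes tested, 13.7% were called and 6.58% were called higher. The test was a quasi-likelihood F-test over all genes, and a gene was called at a Benjamini-Hochberg adjusted p under 0.05. In bulk RNA, fewer cells of a type and less RNA per cell cannot be told apart. After 40 °C no gene of either class was called. The cytosolic genes lay mostly on 1 side without being called: 18 of 19 had a log2 fold change above 0 at 44 °C, with a median of 0.18, against 49.97% and a median of −0.00034 over all genes tested. Cytosolic genes moved together between libraries, so the 19 are not separate observations and 1 library can shift most of them. For 14 of 19, 37 °C replicate 1 was the lowest of all 12 libraries. Of the mitochondrial genes 9 of 16 lay above 0, with a median of 0.088. The counts of calls moved with single libraries: without 44 °C replicate 1 there were 10 cytosolic and 4 mitochondrial calls, and without 44 °C replicate 2 there were 2 and 0. Calls over all genes moved too, from 1975 to 3355 and to 980 in the same fits, and ran from 979 to 3355 with any 1 library left out. Without 37 °C replicate 1 no mitochondrial gene was called, and 1 was without 37 °C replicate 2 or 4, 40 °C replicate 3 or 44 °C replicate 4. With both 37 °C replicate 1 and 44 °C replicate 1 left out, which was chosen after seeing the data, the counts were 5 and 1, with 2018 over all genes. At an adjusted p under 0.01 Rars alone of the 35 genes was called, and 630 of all genes.

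Rars, the arginyl enzyme and a member of the multisynthetase complex (ENSMUSG00000018848, chromosome 11, 35808381 to 35834506, minus strand, mm10), had the smallest p of the 35 genes. Its level was 322, 330, 351 and 311 CPM (counts scaled to the size of the library) in the 4 libraries at 37 °C, and 371, 442, 414 and 435 CPM at 44 °C. Every 44 °C library lay above every 37 °C library. The log2 fold change was 0.34 ± 0.063 (SE), or 1.26-fold, with an adjusted p of 0.0037. At 40 °C Rars stood at 338, 383, 339 and 344 CPM, between the other groups in its mean and overlapping both.

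Gars encodes the glycyl enzyme (ENSMUSG00000029777, chromosome 6, 55038007 to 55079500, plus strand). It had 223, 236, 241 and 228 CPM at 37 °C and 266, 307, 271 and 286 CPM at 44 °C. The groups did not overlap, and the log2 fold change was 0.28 ± 0.067 (adjusted p = 0.013). Its 40 °C libraries, at 230, 283, 261 and 239 CPM, reached into both of the other groups. Leaving out 44 °C replicate 2, the highest library, gave an adjusted p of 0.0503 and ended the call.

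Dars, the aspartyl enzyme of the multisynthetase complex (ENSMUSG00000026356, chromosome 1, 128363707 to 128417368, minus strand), had 144, 155, 153 and 147 CPM at 37 °C. At 44 °C it had 163 CPM in the lowest library and 180 CPM in the highest, all above the 37 °C libraries. The log2 fold change was 0.21 ± 0.049 (adjusted p = 0.012). Its 40 °C libraries, at 155, 166, 157 and 154 CPM, overlapped both.

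Farsb encodes the beta subunit of the phenylalanyl enzyme (ENSMUSG00000026245, chromosome 1, 78417975 to 78488897, minus strand). It had 118, 135, 152 and 137 CPM at 37 °C and 148, 172, 160 and 176 CPM at 44 °C, so the groups overlapped. The log2 fold change was 0.27 ± 0.080 (adjusted p = 0.036). The call was lost in 8 of 20 alternatives at the threshold of 0.05, among them leaving out 37 °C replicate 1, 2 or 4, 40 °C replicate 3, or 44 °C replicate 2, 3 or 4 (adjusted p up to 0.12). Farsa, which encodes the alpha subunit of the same enzyme, had a log2 fold change of 0.20 ± 0.088 and was not called (adjusted p = 0.13).

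Lars2, the mitochondrial leucyl enzyme (ENSMUSG00000035202, chromosome 9, 123366927 to 123462666, plus strand), was the most abundant mitochondrial member. Its level was 156, 169, 165 and 166 CPM at 37 °C and 178, 234, 196 and 212 CPM at 44 °C, with no overlap. The log2 fold change was 0.32 ± 0.078, or 1.25-fold (adjusted p = 0.016). At 40 °C the 4 libraries spread over 187, 167, 164 and 196 CPM. The adjusted p of Lars2 was 0.056 when 37 °C replicate 1 was left out and 0.055 when 44 °C replicate 2 was, so either library decided the call.

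Rars2, the mitochondrial arginyl enzyme (ENSMUSG00000028292, chromosome 4, 34614957 to 34660167, plus strand), had 34.1, 36.4, 37.2 and 39.6 CPM at 37 °C. At 44 °C it had 43.0, 45.4, 40.2 and 46.3 CPM, all above the 37 °C libraries. The log2 fold change was 0.25 ± 0.074 (adjusted p = 0.039). The call was lost in 10 of 20 alternatives at the threshold of 0.05, among them leaving out any 1 library at 37 °C, 40 °C replicate 3, or 44 °C replicate 2 or 4 (adjusted p up to 0.13). At 40 °C it had 40.6, 37.6, 39.4 and 33.9 CPM. Arginine was the amino acid for which both the cytosolic and the mitochondrial gene were called. For leucine the mitochondrial gene alone was called, and Lars, the cytosolic one, had a log2 fold change of 0.11 ± 0.060 (adjusted p = 0.23). The difference between the 2 leucyl genes was not tested.

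**Figure D1:**
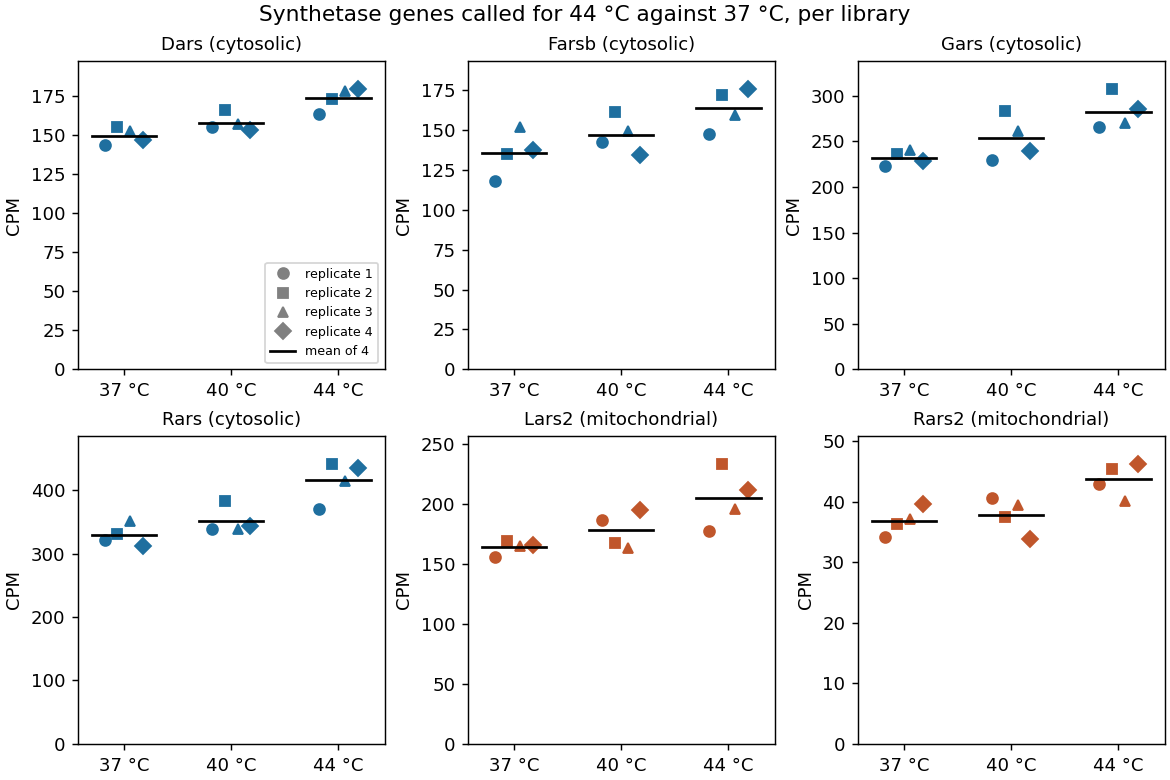
CPM of the 6 synthetase genes called for 44 °C against 37 °C, on axes from 0, with 1 point per library at each temperature (marker shape gives the replicate number) and a line at the mean of 4. In Dars, Gars, Rars, Lars2 and Rars2 every 44 °C point lies above every 37 °C point, and in Farsb the groups overlap.

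Of the other mitochondrial genes, Yars2 and Tars2 had the smallest p. Yars2, the tyrosyl enzyme, had the largest log2 fold change of the 35 genes, 0.46 ± 0.15, and was not called (adjusted p = 0.056). Its libraries ranged widely within each group: 17.6, 22.9, 27.2 and 21.0 CPM at 37 °C, 28.4, 34.7, 24.4 and 23.4 CPM at 40 °C and 25.6, 36.0, 27.1 and 33.6 CPM at 44 °C. It was called in 8 of 20 alternative settings at the threshold of 0.05. Tars2, the threonyl enzyme, had 50.9, 54.7, 58.8 and 56.9 CPM at 37 °C and 59.3, 61.4, 64.5 and 59.1 CPM at 44 °C. Its groups did not overlap, although it was not called (log2 fold change 0.14 ± 0.059, adjusted p = 0.12).

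In all, 3 cytosolic genes (Rars, Gars and Dars) and 3 mitochondrial genes (Lars2, Rars2 and Tars2) had every 44 °C library above every 37 °C library, against 8.62% of all genes tested. Each class is small, so 1 gene moves its share by several percentage points. At an unadjusted p under 0.05 there were 12 of 19 cytosolic and 4 of 16 mitochondrial genes, against 30.89% of all genes.

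The other cytosolic genes gave a graded series with no break between called and uncalled. Iars (isoleucyl), Hars (histidyl) and Farsa had log2 fold changes of 0.26, 0.23 and 0.20. Aars (alanyl), Kars (lysyl) and Nars (asparaginyl) followed at 0.19, 0.18 and 0.18. Of these Kars was nearest to the threshold, with an adjusted p of 0.057. Eprs, a fused enzyme for glutamate and proline, stood at 0.15, Tars (threonyl) and Yars (tyrosyl) at 0.14, Vars (valyl) at 0.13 and Lars at 0.11. Sars (seryl), Wars (tryptophanyl) and Cars (cysteinyl) had 0.084, 0.069 and 0.060. Qars, the glutaminyl enzyme, was the one cytosolic gene below 0, at −0.04 ± 0.043 (adjusted p = 0.59). Its libraries ran from 176 to 186 CPM at 37 °C and from 171 to 180 CPM at 44 °C.

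The uncalled mitochondrial genes spread to both sides of 0. Mars2 (methionyl), Ears2 (glutamyl) and Pars2 (prolyl) had log2 fold changes of 0.34 ± 0.17, 0.26 ± 0.13 and 0.22 ± 0.13, each with a wide error. Wars2 and Hars2 stood at 0.094 and 0.083. Aars2, Iars2, Nars2, Fars2, Cars2, Sars2 and Vars2 lay below 0, from −0.0026 for Aars2 to −0.11 for Vars2, the valyl enzyme. The lowest adjusted p among these 7 was that of Vars2, 0.30.

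**Figure D2:**
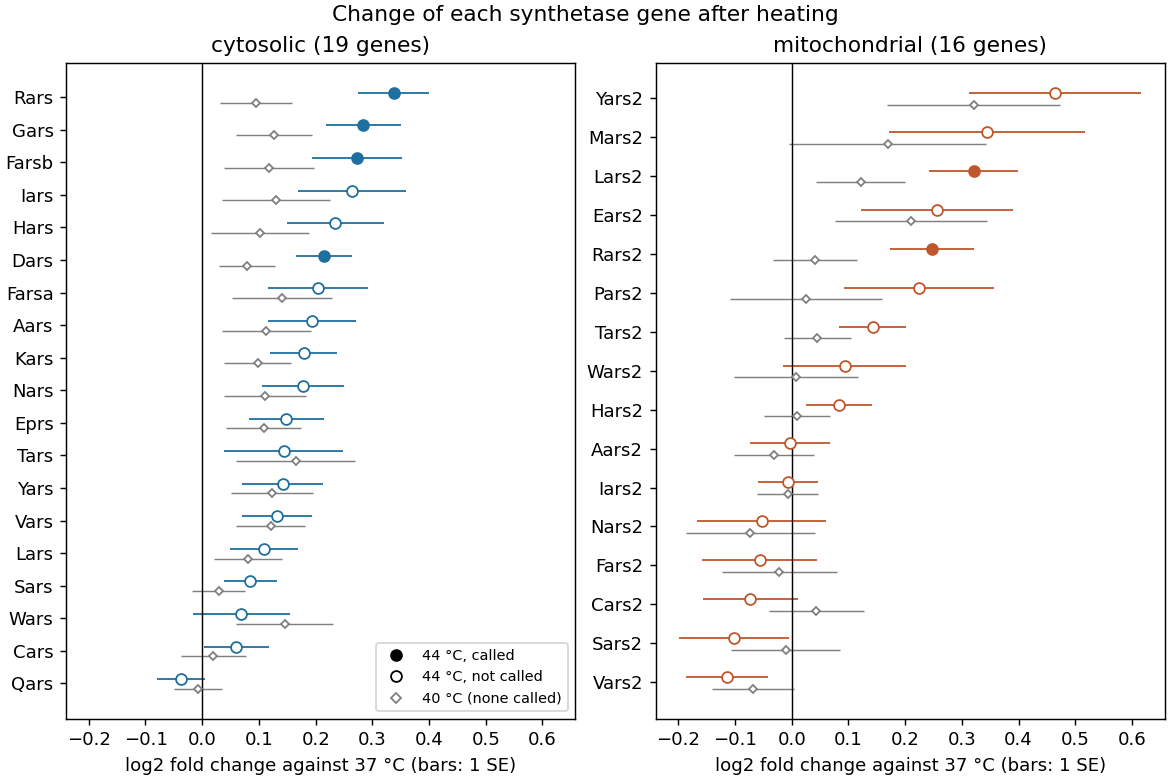
Log2 fold change against 37 °C of each synthetase gene (x axis; bars show 1 SE), cytosolic genes on the left and mitochondrial genes on the right, each ordered by its 44 °C value. Filled circles mark the 6 genes called at 44 °C, open circles those not called and grey diamonds the 40 °C values, of which none was called. At 44 °C the cytosolic genes run from −0.04 to 0.34 with 18 of 19 above 0, and the mitochondrial genes from −0.11 to 0.46 with 9 of 16 above 0.

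The classes were set side by side by amino acid in 16 pairs, in which Fars2 was paired with both Farsa and Farsb and Eprs with both Ears2 and Pars2. At 44 °C the cytosolic gene had the higher log2 fold change in 11 of 16 pairs, with a median difference of 0.14. The widest gaps in that direction were those of Farsb over Fars2 (0.33), Iars over Iars2 (0.27) and Farsa over Fars2 (0.26). In 5 pairs the mitochondrial gene was ahead, most of all Yars2 over Yars (by 0.32) and Lars2 over Lars (by 0.21). No test of the difference between the classes was made, because the genes were chosen with results of these data known. The difference between the class medians, 0.089, fell to 0.013 without 44 °C replicate 2 and rose to 0.17 without 44 °C replicate 1.

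Summed levels gave the same side-by-side view per library. The 19 cytosolic genes together took 5342 ± 263 CPM at 37 °C, 5735 ± 339 CPM at 40 °C and 6031 ± 475 CPM at 44 °C (mean ± SD, n = 4 each). The ranges overlapped, from 5008 to 5647 CPM at 37 °C and from 5545 to 6538 CPM at 44 °C. The 16 mitochondrial genes took 658 ± 16.1, 683 ± 14.4 and 728 ± 28.2 CPM. Their ranges at 37 °C (636 to 673 CPM) and 44 °C (700 to 763 CPM) did not overlap. Lars2 alone gave 164 ± 5.79 CPM of this sum at 37 °C, and without it the sum was 494 ± 11.6 CPM at 37 °C and 523 ± 5.71 CPM at 44 °C, still without overlap. The ratio of the cytosolic to the mitochondrial sum stood at 8.11 ± 0.211 in the 37 °C group, 8.40 ± 0.557 in the 40 °C group and 8.28 ± 0.348 in the 44 °C group. The ratios overlapped between the groups, from 7.88 to 8.39 at 37 °C, from 7.91 to 9.13 at 40 °C and from 7.93 to 8.59 at 44 °C.

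**Figure D3:**
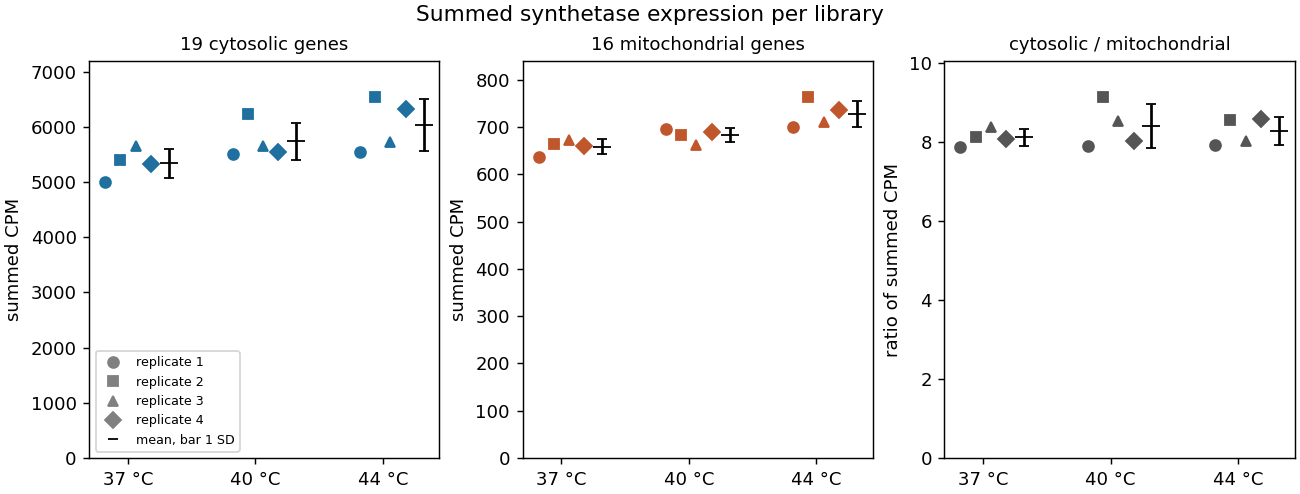
Summed CPM of the 19 cytosolic and 16 mitochondrial synthetase genes, and the ratio of the sums, on axes from 0 with 1 point per library (marker shape gives the replicate number) and the mean with a bar of 1 SD. The mitochondrial sums at 37 °C (636 to 673 CPM) lie below those at 44 °C (700 to 763 CPM), whereas the cytosolic sums and the ratios overlap between temperatures.

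At 40 °C the cytosolic genes again lay mostly above 0, 18 of 19 with a median log2 fold change of 0.11, and the mitochondrial genes had 10 of 16 above 0 and a median of 0.017. Over all genes tested 49.69% lay above 0. Here too the cytosolic genes, which moved together between libraries, are not 19 separate observations. No gene of either class was called, by edgeR or by DESeq2, and none had an unadjusted p under 0.05. No gene had all its 40 °C libraries above all its 37 °C libraries, against 1.61% of genes. Over all genes tested edgeR called 0 (0%), with 752 (5.21%) at an unadjusted p under 0.05, and DESeq2 called 4. The cytosolic genes with the smallest p were Vars (0.12), Gars (0.13), Wars (0.15) and Yars (0.12), given with their log2 fold changes, and each had an adjusted p of 0.82. The mitochondrial ones were Yars2 (0.32), Ears2 (0.21), Lars2 (0.12) and Mars2 (0.17), with adjusted p of 0.82 to 0.85. This comparison shares its 37 °C libraries with that of 44 °C, so the 2 are not independent.

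Between 44 °C and 40 °C, Rars was the one gene called, at a log2 fold change of 0.24 ± 0.063 (adjusted p = 0.038), against 5.02% of all genes called and 1.88% called higher. The call was lost in 9 of 20 alternatives at the threshold of 0.05, with an adjusted p of up to 0.12. No member had all 44 °C libraries above all 40 °C libraries, against 5.28% of genes. Dars (0.14), Gars (0.16) and Farsb (0.15) were the next cytosolic genes by p, with adjusted p of 0.13, 0.20 and 0.29. Among mitochondrial genes Rars2 (0.21), Lars2 (0.20), Tars2 (0.098) and Pars2 (0.20) came first, with adjusted p from 0.13 to 0.43. The class medians were 0.065 and 0.060. A joint test over the 3 temperatures called Rars, Dars and Gars of the cytosolic genes and Lars2 of the mitochondrial ones, with adjusted p of 0.0086, 0.033, 0.039 and 0.044, and 8.21% of all genes. With 1 library left out the joint test called 1 to 5 cytosolic and 0 or 1 mitochondrial genes.

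The cytosolic genes were split by textbook properties, as a description. Over all genes tested 13.7% were called, 1 gene moves the share of such small subsets by many percentage points, and no difference between subsets was tested. Of the 10 class II genes 3 were called at 44 °C and the median log2 fold change was 0.20. Of the 8 class I genes 1 was called and the median was 0.12, with the fused Eprs left out of both. The 7 genes of the multisynthetase complex had a median of 0.18 with 2 called, and the 12 outside it had 0.16 with 2 called. The 12 genes listed as reported ATF4 targets had a median of 0.14 with 1 called (Gars). The 7 not listed had a median of 0.21 with 3 called (Rars, Dars and Farsb). In the mitochondrial set both called genes were class I, 2 of 9, and 0 of 7 class II genes were called.

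Much of the spread of the cytosolic genes was shared between libraries of 1 temperature. Of the 19 genes 15 had their lowest 37 °C value in replicate 1, 15 had their highest 40 °C value in replicate 2, and 14 had their lowest 44 °C value in replicate 1. Replicate 2 at 44 °C was the highest of its group for 14 of 19 and the highest of all 12 libraries for 11. The mitochondrial genes did not share this order to the same extent: no library was highest in its group for more than 7 of 16. Whether this differed between the classes was not tested.

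Over the 12 libraries, 10 of 19 cytosolic genes had a Pearson r above 0.9 with the mean log2 CPM of the other cytosolic genes, led by Nars (0.977) and Iars (0.974). These r values are a description over libraries of 3 temperatures, so they mix differences between temperatures with the spread within each. Sars (0.408) was low and Qars (−0.271) was below 0. Of the mitochondrial genes Yars2 (0.950) and Mars2 (0.934) had r above 0.9, and 8 of 16 were below 0, down to Iars2 (−0.670) and Vars2 (−0.780). Among 10429 other genes with a mean of at least 5 CPM, the 3 most like the cytosolic mean were Nop2 (0.992), Kpnb1 (0.992) and Ctdp1 (0.989). Nop2 is a nucleolar protein, Kpnb1 an importin and Ctdp1 a phosphatase of RNA polymerase II. None of these 3 was called at 44 °C.

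**Figure D4:**
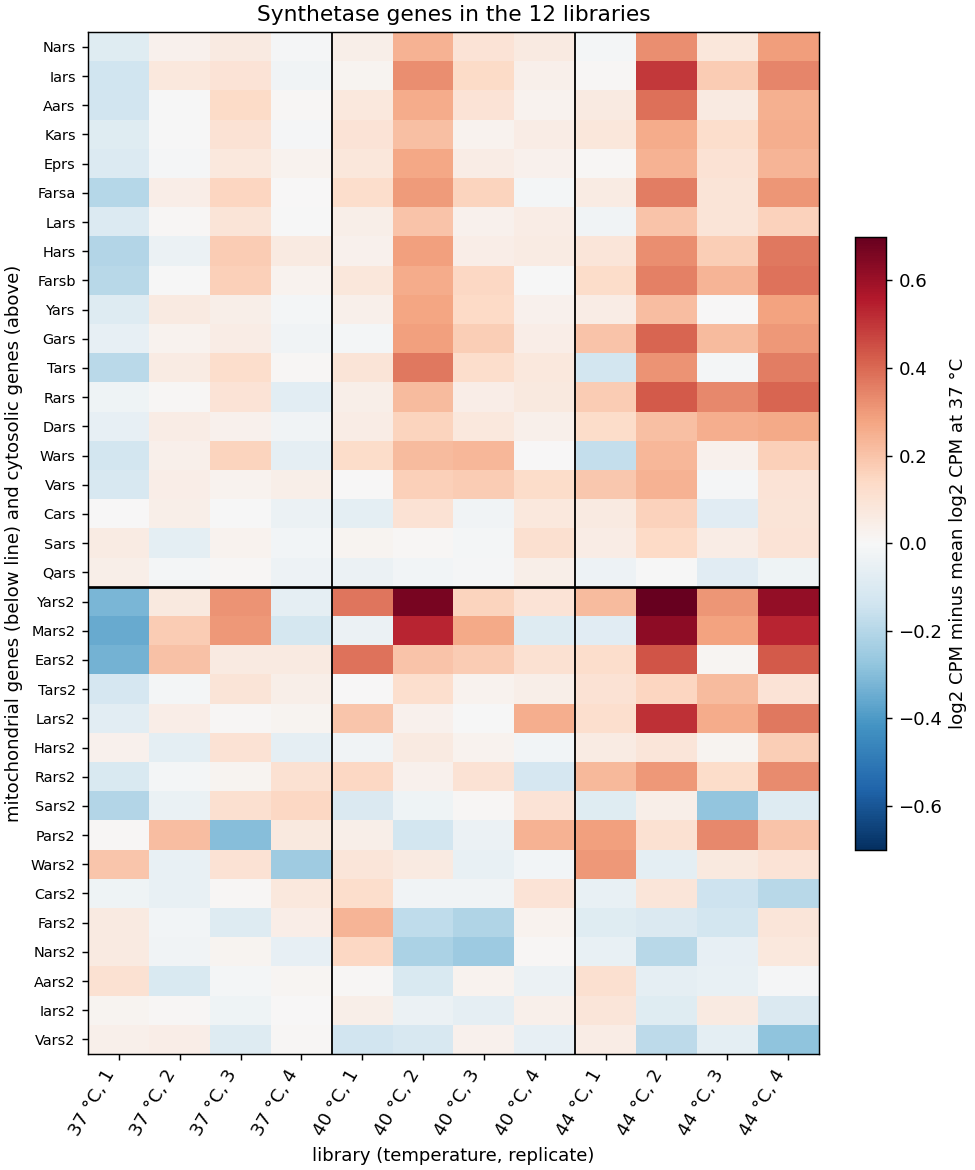
Log2 CPM of each synthetase gene minus its mean at 37 °C, by gene and by library (red above, blue below), with cytosolic genes above the horizontal line and mitochondrial genes below it. Each class is ordered by its correlation with the mean of the other cytosolic genes, and vertical lines part the temperatures. Replicate 1 at 37 °C is the lowest of its group for 15 of 19 cytosolic genes and replicate 2 at 44 °C the highest of its group for 14 of 19.

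The same libraries were at the ends of a component common to the other tested genes, the first of their deviations from the group means (29.7% of that variance). Scores on it were highest in replicate 2 at 40 °C (1.55) and at 44 °C (1.17) and in replicate 4 at 44 °C (1.03). They were lowest in replicate 1 at 44 °C (−1.58) and at 37 °C (−1.12) and in replicate 4 at 40 °C (−1.03). Replicate 4 at 40 °C was the lowest of its group for 8 of 19 cytosolic genes, as was replicate 1 at 40 °C, whose score was −0.218. With this component as a covariate, 15 of 19 cytosolic and 5 of 16 mitochondrial genes were called at 44 °C, all higher, against 34.9% of all genes. At 40 °C it called 3 cytosolic genes and 1 mitochondrial gene, against 4.13%. The component was estimated from the same libraries, so these counts are an alternative beside the 4 and 2 above. What it stands for was not tested.

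At 37 °C the 2 classes differed in level. Levels between genes were compared as CPM per kilobase of the longest coding transcript of each gene. Kars was the highest cytosolic gene, at 197 ± 10.7 CPM per kb (mean ± SD, n = 4), followed by Nars at 181 ± 7.91, Rars at 156 ± 8.02 and Vars at 120 ± 6.15. Kars and Nars differed by less than the sum of their SDs. Wars was the lowest, at 38.3 ± 3.31 CPM per kb, and the class spanned 5.14-fold. Lars2 was the highest mitochondrial gene, at 42.1 ± 1.49 CPM per kb, and Iars2 (21.8 ± 0.309) and Rars2 (19.7 ± 1.20) came next. Pars2 was the lowest, at 2.09 ± 0.302, with Nars2 (2.37 ± 0.0853) within its error. The mitochondrial class spanned 20.2-fold, and 15 of its 16 genes lay below every cytosolic gene. With the gene length of the deposited table in place of the transcript length, Nars was the highest cytosolic gene and Yars the lowest. Lars2 stayed the highest mitochondrial gene, Nars2 became the lowest, and all 16 lay below every cytosolic gene.

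Some genes overlap a neighbour on the other strand, and the use of strand in counting is not stated, so their reads could be mixed. Overlaps were taken between the annotated start and end of each gene, without regard to exons. Hars and Hars2 lie head to head and share 198 bases of gene span. Iars2 shares 2034 bases with Rab3gap2, Cars2 984 with Naxd, Fars2 920 with Nrn1 and 115 with Lyrm4, Wars 544 with Wdr25, Ears2 89 with Ubfd1 and Yars 30 with C77080. None of the 6 genes called at 44 °C is among them.

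Promoter windows of 300 bases (250 before and 50 after the RefSeq start site, GRCm38.p6) were matched for 26 of the 35 genes, 12 cytosolic and 14 mitochondrial. Those of Cars, Hars, Lars, Nars, Rars, Vars, Wars, Hars2 and Pars2 were not matched. Altogether 9 motifs were searched on both strands. The composite C/EBP-ATF motif TGATGNAA, the kind of site through which ATF4 acts on amino acid response genes, was singled out after its matches were seen, and no test was made. It was present in 5 of 12 cytosolic windows (Aars, Gars, Iars, Tars and Yars), in 0 of 14 mitochondrial windows and in 3.97% of 32851 mouse windows. Its stricter form TGATGCAA, which is contained in it, was in 4 of 12 cytosolic windows (Aars, Iars, Tars and Yars), 0 of 14 mitochondrial windows and 0.895% of all windows. Gars, the called gene among the 5, had no match to this stricter form. In Aars the stricter match begins 112 bases before the start site and is not the one shown. A match to TGATGNAA in each of the 5 genes is shown in 30 bases of the gene's own strand, with the motif in capitals (as its reverse complement in the genes other than Yars).

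Gars (chr6:55037960-55037989, plus strand): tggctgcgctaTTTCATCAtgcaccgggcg
Aars (chr8:111033840-111033869, plus strand): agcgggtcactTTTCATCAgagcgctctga
Iars (chr13:49682126-49682155, plus strand): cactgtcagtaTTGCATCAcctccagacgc
Tars (chr15:11399655-11399684, minus strand): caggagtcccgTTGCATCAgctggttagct
Yars (chr4:129189895-129189924, plus strand): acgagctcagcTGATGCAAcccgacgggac

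Of these 5 genes Gars was called at 44 °C, and Aars, Iars, Tars and Yars were not. The match in Gars begins 30 bases before the start site, and that in Tars 15 before it. Those shown for Aars, Iars and Yars lie at bases 4 to 10 after the start.

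The other 7 motifs were the E-box CACGTG (4 of 12 cytosolic windows, 1 of 14 mitochondrial, 7.15% of all windows) and the ETS core CCGGAAG (4 of 12, 4 of 14, 8.86%). The E2F site GGCGGGAA was found in 0 of 12 and 2 of 14 (2.19% of all), and the heat shock element core TTCNNGAA in 1 of 12 and 0 of 14 (8.52%). The cyclic AMP response element TGACGTCA (1.79% of all), the NRF1 site (0.971%) and the full heat shock element of 3 units (0.603%) had no match in a member's window. A match describes letters in this window and shows no binding.

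The 250 bases before the start site of 3 called genes follow, with every match to a motif searched in capitals. Gars holds an ETS core on the opposite strand and the composite motif, and Farsb holds an E-box. Lars2, the called mitochondrial gene with the smallest p, holds none of the motifs. Dars and Rars2, also called and not shown, hold no whole match in these 250 bases. An ETS core of Rars2 begins 4 bases before the start site and runs past it.

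Gars (chr6:55037751-55038000, plus strand): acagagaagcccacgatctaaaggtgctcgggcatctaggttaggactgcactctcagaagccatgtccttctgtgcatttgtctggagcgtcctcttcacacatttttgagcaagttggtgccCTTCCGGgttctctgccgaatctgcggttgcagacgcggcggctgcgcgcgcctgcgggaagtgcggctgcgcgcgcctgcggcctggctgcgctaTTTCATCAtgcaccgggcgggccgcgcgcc
Farsb (chr1:78488898-78489147, minus strand): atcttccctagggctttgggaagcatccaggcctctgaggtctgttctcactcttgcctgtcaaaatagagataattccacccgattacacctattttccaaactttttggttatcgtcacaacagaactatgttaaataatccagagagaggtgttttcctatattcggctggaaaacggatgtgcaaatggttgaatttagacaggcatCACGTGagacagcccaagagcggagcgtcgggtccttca
Lars2 (chr9:123366677-123366926, plus strand): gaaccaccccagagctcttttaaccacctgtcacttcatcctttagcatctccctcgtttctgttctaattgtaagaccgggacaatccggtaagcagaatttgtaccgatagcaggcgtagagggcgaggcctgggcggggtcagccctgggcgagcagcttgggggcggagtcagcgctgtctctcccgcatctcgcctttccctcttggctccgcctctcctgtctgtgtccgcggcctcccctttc

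The partners of the enzymes were described from lists of related genes. Of 15 genes that act with the cytosolic enzymes (scaffold proteins, tRNA export, editing, elongation factors), 4 were called higher at 44 °C and 0 lower, with a median log2 fold change of 0.092. This is 26.7% of the list, against 13.7% of all genes called and 6.58% called higher. Aimp1, a scaffold of the multisynthetase complex, had 130 ± 4.76 CPM at 37 °C and rose to 155 ± 10.7 CPM, a log2 fold change of 0.25 ± 0.057 (adjusted p = 0.012). Eef1e1, another protein of the complex, rose from 100.2 ± 10.6 to 132 ± 23.5 CPM (0.40 ± 0.12, adjusted p = 0.041). Aimp2, the third scaffold, had 0.22 ± 0.093 and was not called (adjusted p = 0.13). Eef1d, a subunit of the exchange factor for elongation factor 1A, rose from 308 ± 25.7 to 387 ± 39.0 CPM (0.33 ± 0.080, adjusted p = 0.016). Aarsd1, an editing-domain protein, was called at 0.335 ± 0.207 against 1.08 ± 0.490 CPM, not far above the level that 3 counts give (0.154 to 0.184 CPM). With 1 library left out at a time the count of this list ran from 1 (without 37 °C replicate 1, 44 °C replicate 2 or 44 °C replicate 4) to 5 (without 44 °C replicate 1).

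Of 24 genes of mitochondrial tRNA processing and translation, 4 were called higher and 0 lower, with a median of 0.13. The share called, 16.7%, was near the 13.7% of all genes, of which 6.58% were called higher. Qrsl1, a subunit of the amidotransferase that makes mitochondrial glutaminyl-tRNA in place of a synthetase, rose from 9.98 ± 1.71 to 14.8 ± 2.84 CPM (0.57 ± 0.15, adjusted p = 0.025). Gatb and Gatc, the other subunits, had −0.02 and 0.091 and were not called. Trmt10c, a subunit of mitochondrial RNase P, had 0.43 ± 0.13 (adjusted p = 0.046), Trit1, a tRNA modifying enzyme, 0.36 ± 0.097 (adjusted p = 0.026), and Tufm, the mitochondrial elongation factor Tu, 0.28 ± 0.073 (adjusted p = 0.020). Leaving out 1 library at a time gave from 0 calls (without 37 °C replicate 2, 37 °C replicate 4 or 44 °C replicate 2) to 8 (without 44 °C replicate 1).

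Of 30 genes of the amino acid response, 3 were called higher and 2 lower at 44 °C, with a median of 0.040. The share called, 16.7%, was near the 13.7% of all genes. Atf4 mRNA rose from 473 ± 41.3 to 602 ± 95.3 CPM (0.35 ± 0.10, adjusted p = 0.040). Mthfd2 and Psat1, enzymes of mitochondrial folate and serine metabolism, rose by 0.48 ± 0.097 (adjusted p = 0.0055) and 0.25 ± 0.078 (adjusted p = 0.0496). Slc7a11, the cystine transporter, fell by 0.83 on the log2 scale, from 12.0 ± 0.529 to 6.78 ± 0.730 CPM (adjusted p = 0.00040). Cebpb, a transcription factor, fell by 0.48 (adjusted p = 0.0062). Asns, which makes asparagine, had 0.21 ± 0.068 (adjusted p = 0.051), and Ddit3 and Trib3, 2 further ATF4 targets, had −0.18 and −0.01 (adjusted p of 0.35 and 0.96). With 1 library left out, 1 to 5 genes were called higher and 2 to 5 lower, with 5 of each without 44 °C replicate 1. Only 1 was called higher without 37 °C replicate 1, 2 or 4, 40 °C replicate 3, or 44 °C replicate 2 or 4. No gene of the 3 lists was called at 40 °C by edgeR, and each list had 1 gene at an unadjusted p under 0.05. Between 44 °C and 40 °C Slc7a11 and Cebpb were called lower.

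Of 6 heat shock genes 3 were called higher at 44 °C: Hspb1, which encodes HSP27, at a log2 fold change of 1.63 (adjusted p = 2.9e-07), Hspa1a at 2.56 and Hspa1b at 1.12. Hsph1, Dnajb1 and Hspa8 were not called, at 0.0030, 0.032 and −0.15 (adjusted p of 0.99, 0.72 and 0.34). Of 11 markers of the chondrocyte lineage, Prrx1, Twist1, Runx2 and Sox9 were well above the floor, and Sox5 stood at 8.17 CPM at 37 °C. Col2a1, Acan and Col1a1 stood between 1.21 and 2.13 CPM at 37 °C, and 3 of the 11 had under 10 reads in every library. Matn1 and Col10a1, genes of cartilage matrix, were among those 3. Prrx1 and Twist1 were called lower at 44 °C, with log2 fold changes of −0.40 and −0.28 (adjusted p of 0.0028 and 0.0069). Sox5 had a log2 fold change of −0.56 and was not called (adjusted p = 0.078). The summed level of 5 endothelial markers lay between 2.49 and 3.70 CPM at 37 °C and between 4.25 and 6.19 CPM at 44 °C. Pecam1 and Cdh5 of them were called higher, with only 11 to 39 and 3 to 14 reads per library. Kdr was not called (adjusted p = 0.41), and Tek and Vwf were not tested. All 5 muscle markers and 4 of 5 macrophage markers had under 10 reads in every library. Cd68, the fifth macrophage marker, had 304 to 789 reads and a log2 fold change of −0.40 at 44 °C (adjusted p = 0.093). Of 5 epithelial markers Krt18 stood at 91.6 CPM and Krt14 at 33.6 CPM at 37 °C, and Epcam, Cdh1 and Krt8 had at most 29 reads. Krt14 was called lower at 44 °C (−0.49, adjusted p = 0.029), and Krt18 was not called (0.25, adjusted p = 0.075). Of 5 adipocyte markers none was called, and their summed level was 2.09 to 4.14 CPM at 37 °C and 3.05 to 4.57 CPM at 44 °C. The part of these shifts in the synthetase results was not tested.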

How the data were processed

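Gene expression was measured in 12 libraries of ATDC5 cells. The values are raw counts per gene as deposited by the authors, 1 column per library. The submitters' processing notes name the build mm10, and the tools featureCounts 1.5.0-p3, HISAT2 2.0.5, StringTie 1.3.3b and fastp. The role of each tool, the use of strand and the handling of multimapped reads are not given in the sources used here.

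The tests were run with edgeR 4.0.16 (R 4.3.3, limma 3.58.1). Genes were kept by filterByExpr (minimum count 10, minimum total 15), which left 14424 of 54532 genes, all 35 synthetase genes among them, and at least 99.86% of each library's counts. Libraries were scaled by TMM, and CPM values are on those scaled sizes. All 12 libraries entered 1 quasi-likelihood model with a mean for each temperature, and two-sided F-tests were adjusted by Benjamini-Hochberg over all genes tested. SE is the size of the log2 fold change over the root of F. Replicates of a group differed by more than counting noise (chi-square per gene of 2.85 to 21.0 over 18 pairs), so each library counted as 1 replicate. A count of 0 allows up to 3 counts, 0.154 to 0.184 CPM, for counting error only. The model was tested on simulated data.

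Named genes were the called members with the smallest p of each class (4 where fewer were called), the highest and lowest per kb, the called genes of the partner lists with the smallest p, Atf4, Asns, Ddit3, Trib3, Aimp1, Aimp2 and Eef1e1, and the 3 genes most like the cytosolic mean. Other genes were named to account for every member or after their values were seen. Members and lists were chosen with earlier results of these data known. Chosen after seeing these data were the transcript length in the levels per kb (GENCODE M21), the motif singled out and the heat shock element core, added once the other motifs had been searched, and the fit without 2 libraries. Alternatives were DESeq2 1.42.0 and its size factors, library totals, no filter, the 2 compared groups alone, a replicate block, the within-group component as a covariate, a threshold of 0.01 and each library left out. Promoter windows were from RefSeq. A few values are not reported here.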

Additional observations from a re-analysis of the deposited data

Results flagged for a closer look

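In 5 of 114 groups of 4 libraries (35 genes and 3 summed values at 3 temperatures), 1 library stood far from the other 3 by Dixon's criterion, where chance gives about 1 in 20. Replicate 2 at 40 °C was high for Hars (215 CPM, others 181 to 184), Lars (411 CPM, others 365 to 370), Rars (383 CPM, others 338 to 344) and Tars (369 CPM, others 300 to 311). The 37 °C replicate 1 was low for Vars (460 CPM, others 506 to 513).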

How the results depend on the processing

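Of the genes called for 44 °C against 37 °C, Rars and Dars were called in all 20 alternatives that kept the threshold of 0.05, with highest adjusted p of 0.019 and 0.047. Gars lost its call in 1, Lars2 in 2, Farsb in 8 (adjusted p up to 0.12) and Rars2 in 10 (up to 0.13). At a threshold of 0.01, the remaining alternative, Rars alone of these 6 genes was called. No gene given with an alternative changed direction. The mitochondrial median at 40 °C and the difference between class medians for 44 °C against 40 °C, both near 0, reached −0.0025 and −0.047. For 44 °C against 37 °C, the 4 cytosolic calls became 1 at an adjusted p under 0.01, 7 with a replicate block and 15 with the within-group component as a covariate, where calls over all genes were 630, 2557 and 5034. The 2 mitochondrial calls became 0, 4 and 5 in the same order, 1 with the 2 compared groups alone and 1 without both 37 °C replicate 1 and 44 °C replicate 1. With 1 library left out the cytosolic count ran from 2 (without 44 °C replicate 2) to 10 (without 44 °C replicate 1). The mitochondrial count ran from 0 (without 37 °C replicate 1 or 44 °C replicate 2) to 4 (without 44 °C replicate 1). The mitochondrial median was lowest at 0.036 without 37 °C replicate 4 and highest at 0.12, and the difference between the class medians ran from 0.013 to 0.17. At 40 °C the covariate gave 3 cytosolic calls and 1 mitochondrial call in place of 0, with 595 over all genes. For 44 °C against 40 °C the 1 cytosolic call became 0 with the 2 groups alone, 0 at 0.01 and 6 with the covariate, and 0 or 1 with a library left out. Calls over all genes, 724 in the main fit, were 334, 270 and 3217 in the first 3 of these and 394 to 1265 with a library left out. The mitochondrial 0 became 2 with the covariate and 1 without the 2 libraries (1417 over all genes), and 0 or 1 with a library left out. In the joint test the 3 cytosolic calls became 5 with the block, 15 with the covariate and 1 at 0.01, and 1 to 5 with a library left out. The 1 mitochondrial call became 2 by DESeq2, 2 without the filter, 4 with the covariate and 0 at 0.01, and 0 or 1 with a library left out. DESeq2 called 2051 of all genes in the joint test, and the fit without the filter 1784. The causes were not tested. Same-numbered libraries correlated in their deviations from the group means at −0.207 to 0.366 over 12 pairs, 3 of them above 0.1. The highest were replicate 1 at 37 °C and 44 °C (0.366) and replicate 2 at 40 °C and 44 °C (0.319). The main model did not pair libraries by number, and whether same-numbered libraries belong together was not tested. Ears2, Nars2 and Pars2, at about 10 CPM or less, had 87 to 217 reads per library. Whether depth decided their calls was not tested.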
